A study of Mus musculus with 9 samples.

Results

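The genes described here encode the mitochondrial respiratory chain and the ATP synthase. They were chosen by name, as genes whose symbol starts with Nduf, Cox and a digit, Uqcr, Atp5, mt-Nd, mt-Co, mt-Cytb or mt-Atp, or is Sdha, Sdhb, Sdhc or Sdhd. Symbols with -ps were left out, and at least 90 counts in all were required. Of 34745 genes deposited, 114 matched by name and 109 had enough counts. These 109 genes are 96 nuclear genes (77 subunits and 19 assembly factors or regulators) and the 13 protein-coding genes of the mitochondrial genome. All 109 passed the filter on low counts and were tested. Just inside the limit lay Cox4i2 with 123 counts and Ndufb4 with 194, and just outside it Cox7a1 with 76, Cox8b with 58 and Cox6b2 with 21, while Cox7b2 and Cox8c had 0. A few subunits carry other symbols in the table (Cyc1, Usmg5, 2010107E04Rik and the inhibitor Atpif1) and are therefore not in the set.

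RNA was measured by sequencing in 9 tumours that LLC cells, a mouse lung carcinoma line, had formed under the skin of male, wild-type C57BL/6 mice, with 3 tumours in each of 3 groups. The host age is labelled 6 to 8 with no unit, and the mice were randomised at a tumour volume of about 100 mm3. The isotype group received a control antibody (10 mg/kg), the anti-PDL1 group an antibody against the T cell checkpoint ligand PDL1 (10 mg/kg), and the BTZ+anti-PDL1 group that antibody and BTZ (bortezomib in the series title, a proteasome inhibitor, 0.5 mg/kg), all given into the peritoneal cavity. No group with BTZ alone was analysed here, so BTZ is seen only on top of the antibody, and all tumours come from 1 cell line in immunocompetent hosts.

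Each tumour gave between 18.52 M and 21.51 M counts (M, mega). The tumours are labelled lung adenocarcinoma. The lung lineage markers Nkx2-1, Sftpc and Sftpb had 0 counts in all 9 tumours and the epithelial marker Epcam at most 5. Other markers of lung or epithelium were present, with 84 to 179 counts for Napsa, 29 to 174 for Cdh1 and 70 to 508 for Krt8. Per M counts, without scaling between tumours, Krt18 lay between 56.7 and 115 and the mesenchymal filament gene Vim between 2242 and 2737. Levels elsewhere are given as CPM (counts per M counts, scaled between tumours). Some tumours held RNA of other tissues. The summed level of 14 skeletal muscle markers ranged from 18.8 to 3106 CPM and was highest in isotype replicate 3, anti-PDL1 replicate 1 and BTZ+anti-PDL1 replicate 1. These are bulk samples, in which fewer cells of a type and less RNA per cell cannot be told apart.

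The respiratory chain passes electrons from NADH (complex I) or succinate (complex II) through ubiquinone, complex III and cytochrome c to oxygen at complex IV. Complexes I, III and IV pump protons across the inner mitochondrial membrane, and the ATP synthase (complex V) uses the gradient to make ATP. Complexes I, III, IV and V combine subunits made from nuclear mRNA with core subunits encoded by mitochondrial DNA, whereas complex II is entirely nuclear. The mitochondrial genes are transcribed as long polycistronic RNAs, nearly all from 1 strand, that are then cut into separate mRNAs.

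Most mitochondrial genes overlap a neighbour or have a copy in the nuclear genome, so their counts depend on how reads were placed. A copy here has at least 95% identity over at least 80% of the coding sequence, and shorter copies were not counted. The genes mt-Cytb, mt-Nd1 and mt-Nd2 had neither an overlap nor such a copy. The end of mt-Atp8 and the start of mt-Atp6 share 43 bases at MT:7927-7969, mt-Nd4l and mt-Nd4 share 7, mt-Atp6 and mt-Co3 share 1, and mt-Nd5 and mt-Nd6 share 14 on opposite strands. A block of chromosome 1 holds copies of mt-Co2, mt-Atp6, mt-Co3, mt-Nd3 and mt-Nd4l, and mt-Co1 also has a copy, with 0.816% of the reads given to either place. Its copy of mt-Atp6, Gm10925 (chr1:24613974-24614651, minus strand), has 0 differences over 678 bases. The first bases of both are shown because reads from either place would be the same (GRCm38, 5′ to 3′, no capitals since no base differs).
mt-Atp6 first bases, MT:7927-7969: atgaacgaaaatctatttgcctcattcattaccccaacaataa
Gm10925 first bases, chr1:24614609-24614651: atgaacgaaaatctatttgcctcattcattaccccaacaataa

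The copy of mt-Nd3, Gm28438, differs at 1 of 345 bases, the substitution T3C, counted from 1 at the first base of the gene. The first bases of both are shown with that base in capitals.
mt-Nd3 first bases, MT:9459-9481: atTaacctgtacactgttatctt
Gm28438 first bases, chr1:24613097-24613119: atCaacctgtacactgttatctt

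Reads given to the mt-Atp6 copy were 10.9% of the reads given to either place. Among nuclear genes, 22 of 96 had a copy elsewhere with at least 95% identity over at least 80% of the coding sequence. For 5 of them over 10% of the reads lay on such copies, namely Atp5h (54.1%), Cox5b (35.1%), Atp5l (35.6%), Ndufs5 (32.1%) and Cox7c (16.9%), so the levels of these 5 are uncertain. Copies absent from the deposited genes have no count and are not in these shares. Among them are copies of Ndufb4 and Atp5g2 with 100% identity and of Atp5g1 with 99.75%, so the levels of these genes are uncertain too. The same holds for other genes named below. Their closest uncounted copies had 98.81% identity for Uqcr11, 99.79% for Ndufab1, 96.92% for Ndufb11, 98.84% for Atp5f1 and 96.93% for Cox6c.

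In every tumour the 13 mitochondrial genes held several times more RNA than the 96 nuclear genes together. They took 3.77%, 3.61% and 3.80% of all counts in the isotype tumours, 3.94%, 3.51% and 3.62% in the anti-PDL1 tumours, and 3.99%, 3.90% and 3.50% in BTZ+anti-PDL1 tumours. The nuclear genes took 0.680%, 0.666% and 0.738%, then 0.654%, 0.670% and 0.636%, and then 0.705%, 0.641% and 0.661%, in the same order. The ratio of mitochondrial to nuclear counts was 5.37 ± 0.195 in isotype, 5.65 ± 0.399 in anti-PDL1 and 5.68 ± 0.391 in BTZ+anti-PDL1 tumours (SD, n = 3 each). All 3 groups overlapped in that ratio, which ran from 5.16 to 6.08 over single tumours. The ratio includes mt-Atp6, which was low in isotype replicate 3 and anti-PDL1 replicate 3. Without mt-Atp6 it was 4.92 ± 0.127 in isotype, 5.20 ± 0.487 in anti-PDL1 and 5.04 ± 0.354 in BTZ+anti-PDL1 tumours (SD, n = 3 each). The groups again overlapped, but the order of the treated groups changed.

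**Figure D1:**
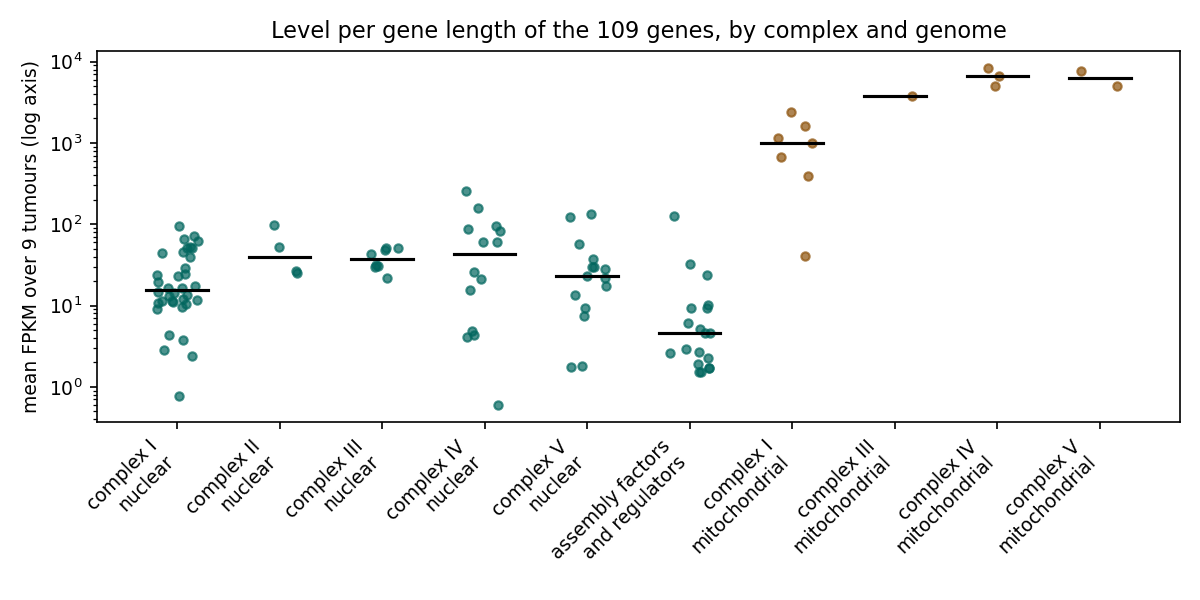
Mean FPKM over the 9 tumours (vertical log axis) of each of the 109 genes (points), grouped along the horizontal axis by complex and genome, with a line at each group's median. The medians lie between 4.56 and 43.2 for nuclear groups and between 999 and 6681 for mitochondrial ones, with mt-Nd6 at 40.8 as the lowest mitochondrial gene.

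By FPKM (fragments per kilobase and per M fragments, mean of 9 tumours), the nuclear subunits spread widely within complexes I, IV and V and little within II and III. The length that FPKM divides by exceeded the whole locus for some nuclear genes, such as Atp5g1 (9797 bases for chr11:96068852-96075670). FPKM levels and ranks of nuclear genes therefore depend on that length as well as on the counts. The median level was 15.5 for 36 complex I genes, 39.3 for 4 complex II genes, 37.6 for 8 complex III genes, 43.2 for 14 complex IV genes and 23.0 for 15 complex V genes, and 4.56 for the 19 assembly factors and regulators. In complex I the highest was the accessory subunit Ndufa6 at 94.0 and the lowest Ndufb4 at 0.766. In complex II the membrane anchors Sdhd (98.0) and Sdhc (25.5) were the highest and the lowest. In complex III all 8 lay between Uqcrq at 21.9 and Uqcrb at 51.0. In complex IV the small subunit Cox8a was highest at 259, and Cox4i2, an isoform known from lung and low oxygen, lowest at 0.592. In complex V the catalytic subunit Atp5b led at 133, and Atp5g2 was lowest at 1.77. The low values of Ndufb4 and Atp5g2 are uncertain, since both have identical copies without a count.

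Mitochondrial mRNAs stood above these levels, apart from mt-Nd6. The complex IV core gene mt-Co1 was highest at 8442 FPKM, mt-Atp8 stood at 7670 and mt-Cytb of complex III at 3793. The 7 complex I genes were lower, with a median of 999 and a highest value of 2380 for mt-Nd4l. At the low end, mt-Nd6, the 1 protein gene read from the other strand, stood at 40.8, and the strand setting of the counting is not given in the sources used here.

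Genes also differed in how steady they were over the 9 tumours. Sdhd was the steadiest of the nuclear genes, with 126.8, 126.1 and 129.0 CPM in isotype, 126.2, 124.5 and 122.1 in anti-PDL1 and 126.7, 127.1 and 127.6 in BTZ+anti-PDL1 tumours. Its standard deviation of log2 CPM was 0.023, against a median of 0.166 over the nuclear genes. Cox4i1, the common form of complex IV subunit 4, was likewise steady at 221 to 247 CPM. At the other end stood Cox6a2 (2.40), mt-Atp6 (1.08), Ndufa4l2 (0.81), the complex I assembly factor Ndufaf4 (0.62), Cox4i2 (0.60), Ndufb4 (0.58), Cox7c (0.48) and mt-Nd6 (0.43).

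Isoform pairs of complex IV showed tissue forms at low levels. Cox6a2, the heart and skeletal muscle form of subunit 6a, had 1, 3 and 215 counts in isotype, 122, 25 and 32 in anti-PDL1 and 91, 1 and 4 in BTZ+anti-PDL1 tumours. Its ubiquitous partner Cox6a1 lay between 85.8 and 113 CPM in all 9 tumours. The summed muscle markers stood at 18.8, 20.4 and 3106 CPM in isotype, 1167, 133 and 243 in anti-PDL1 and 911, 33.4 and 19.9 in BTZ+anti-PDL1 tumours. The 3 tumours with the most muscle RNA were the 3 with the most Cox6a2, within each group 1. Of the 14 markers, 7, 3 and 0 were at 0 counts in isotype, 0 in each anti-PDL1 tumour, and 0, 1 and 6 in BTZ+anti-PDL1 tumours. Counts of Cox8b, another muscle form, were 0, 0 and 36 for the isotype, 0, 0 and 8 for the anti-PDL1 and 11, 0 and 3 for the BTZ+anti-PDL1 tumours. Cox7a1, which muscle and brown fat express, had 6 to 14 counts in each tumour.

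**Figure D2:**
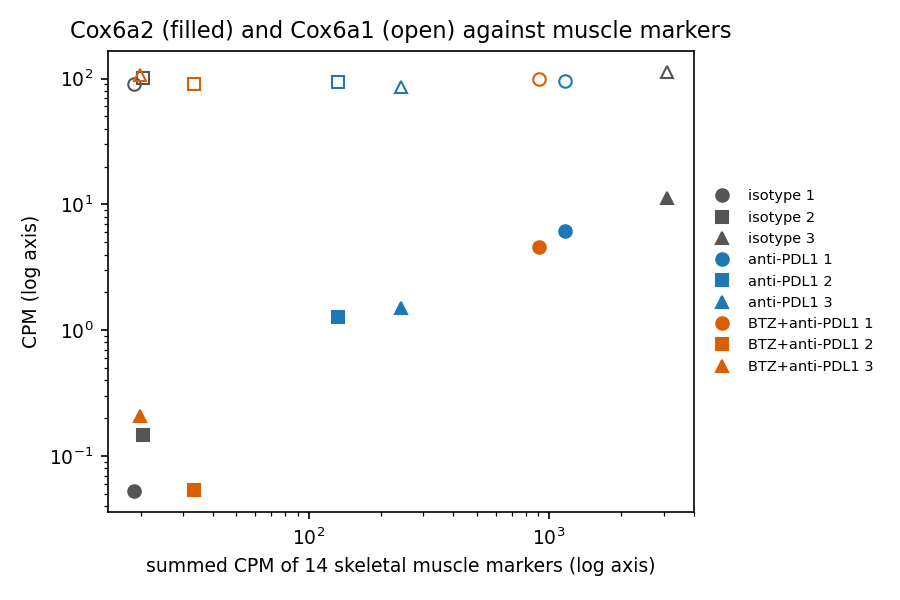
CPM of Cox6a2 (filled) and Cox6a1 (open) in each of the 9 tumours (vertical log axis) against the summed CPM of 14 skeletal muscle markers (horizontal log axis), with colour for the group and shape for the replicate. Cox6a1 stays between 85.8 and 113 CPM, while Cox6a2 spans a 214-fold range and is highest at the right.

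The other isoform families differed less. Cox4i2 stood at 0.472, 1.39 and 0.732 CPM in isotype, 1.05, 0.355 and 0.609 in anti-PDL1 and 0.300, 0.694 and 0.625 in BTZ+anti-PDL1 tumours, so the groups overlapped. Ndufa4l2, a relative of the complex IV subunit Ndufa4 that is known to be induced in low oxygen, was at 1.89, 10.3 and 4.03 CPM in isotype, 4.25, 8.93 and 4.45 in anti-PDL1 and 3.50, 1.98 and 3.28 in BTZ+anti-PDL1 tumours. All BTZ+anti-PDL1 values were below all anti-PDL1 values, but the difference did not pass (log2 fold change -1.01 ± 0.59, SE, edgeR adjusted p = 0.886) and was -0.57 without anti-PDL1 replicate 2. Ndufa4 itself lay between 49.2 and 66.3 CPM. Of the 3 genes for subunit c, whose mature proteins are identical, Atp5g3 gave 37.0 FPKM, Atp5g1 1.79 and Atp5g2 1.77 as means of 9 tumours. Their counts over all 9 tumours were 19228, 3104 and 662, in that order. Atp5g1 and Atp5g2 came close in FPKM because their counts were divided by 9797 and 2111 bases. Both also have near-identical copies outside the deposited genes. Cox7a2, the common form of subunit 7a, lay between 39.7 and 51.2 CPM, Cox7a2l, which joins complexes III and IV into supercomplexes, between 127 and 162, Cox8a between 122 and 157, Cox7b between 92.0 and 118 and Cox6b1 between 65.0 and 103.

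Anti-PDL1 against isotype asks what the antibody alone left in the tumours. No gene of the set was called at an adjusted p under 0.05 by edgeR, 0 of 109 (smallest adjusted p = 0.763), beside 2 of 14506 genes tested (0.0138%), and DESeq2, which called 15 of 14448 genes (0.104%), also called 0 of the set. The fold changes nevertheless lay mostly on 1 side for the nuclear genes and not for the mitochondrial ones. Of 96 nuclear genes 84 (87.5%) were lower in the anti-PDL1 tumours, with a median log2 fold change of -0.16, against 51% of all genes and a median of -0.0034. At an unadjusted p under 0.05, 29 nuclear genes were lower (30.2%, beside 3.34% of all genes) and 0 higher (beside 3.01%). The same number, 29, had all anti-PDL1 values below all isotype values (beside 6.61% of all genes), and 0 had them all above (beside 6.08%). A count over genes that share tumours is a description, and no test was made of it.

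By complex, the lower side held 35 of 36 nuclear genes of complex I (median -0.21), 4 of 4 of complex II (-0.053), 7 of 8 of complex III (-0.19), 13 of 14 of complex IV (-0.20), 12 of 15 of complex V (-0.12) and 13 of 19 assembly factors and regulators (-0.11). Groups did not overlap for 13, 0, 4, 5, 4 and 3 of them. The exceptions on the higher side among subunits were Ndufb2, the core subunit Uqcrc1, Ndufa4l2 and Atp5a1, Atp5g2 and Atp5o. Complex II thus lay closest to the median of all genes.

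The nuclear genes with the smallest p in each class were all lower. Cox14, which assists the making and assembly of Cox1, had the smallest p of the set, at 29.4, 24.1 and 29.4 CPM in isotype tumours and 21.1, 21.01 and 19.1 in anti-PDL1 tumours (log2 fold change -0.44 ± 0.12, SE, edgeR adjusted p = 0.763). Atp5k, subunit e at the interface of ATP synthase dimers, was at 20.8, 21.3 and 29.7 CPM against 17.7, 18.5 and 15.4 (-0.48 ± 0.16, adjusted p = 0.763). The groups of both genes did not overlap. Atp5j2, subunit f, was at 72.1, 70.8 and 84.7 against 60.1, 60.0 and 62.2 CPM (-0.32 ± 0.096). In complex III, Uqcr11 (-0.38 ± 0.12), Uqcrh (-0.32 ± 0.097), Uqcr10 (-0.28 ± 0.096) and Uqcrq (-0.27 ± 0.11) had groups that did not overlap. The other genes of complex III, with overlapping groups, were Uqcrc2 (-0.11 ± 0.090), Uqcrb (-0.10 ± 0.091), Uqcrfs1 (-0.084 ± 0.082) and Uqcrc1 (0.11 ± 0.084). In complex I Ndufa6 was at 60.9, 52.9 and 62.6 CPM against 49.0, 48.8 and 44.3 (-0.31 ± 0.10), and Ndufab1, the mitochondrial acyl carrier protein, at -0.34 ± 0.12. In complex IV the smallest p values belonged to Cox6b1 (-0.30 ± 0.12) and Cox5a (-0.27 ± 0.11). Among assembly factors Ndufaf2, which acts late in building complex I, came next after Cox14 (-0.38 ± 0.14). Single isotype tumours set part of the size: without isotype replicate 3 the log2 fold change was -0.29 for Atp5k, -0.17 for Uqcr10 and -0.20 for Cox6b1, and without isotype replicate 1 it was -0.19 for Uqcrh.

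**Figure D3:**
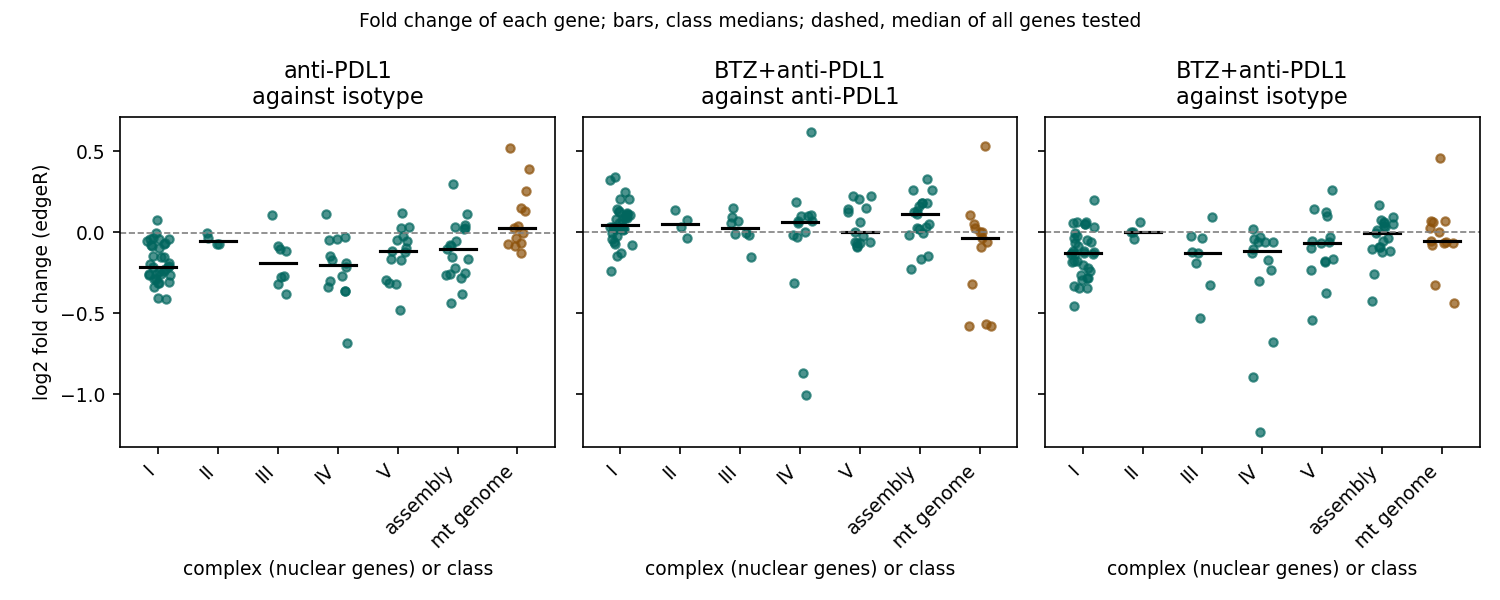
Log2 fold change (vertical axis) of each of the 109 genes in the 3 comparisons (panels), by complex for nuclear genes and with the mitochondrial genome last, with bars at class medians and a dashed line at the median of all genes tested. In anti-PDL1 against isotype the nuclear class medians lie between -0.21 and -0.053 and the mitochondrial one at 0.024; no point passed the edgeR test.

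In each tumour, the median over nuclear genes of log2 CPM minus the gene's mean over 9 tumours was 0.039, 0.045 and 0.18 in isotype, -0.048, -0.026 and -0.12 in anti-PDL1 and 0.10, -0.085 and -0.039 in BTZ+anti-PDL1 tumours. All 3 isotype tumours were thus above all 3 anti-PDL1 tumours, and BTZ+anti-PDL1 replicate 1 stood apart from its group. Without isotype replicate 3 the median log2 fold change of the nuclear genes was -0.11, and without the tumours low in mt-Atp6 (isotype and anti-PDL1 replicate 3, described with the mitochondrial genes) it was -0.095.

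Other values moved alongside. The summed level of 6 red blood cell markers was 136, 250 and 268 CPM in isotype, 88.8, 45.3 and 58.1 in anti-PDL1 and 196, 29.0 and 42.1 in BTZ+anti-PDL1 tumours, so it too was higher in all isotype tumours than in any anti-PDL1 tumour and high in BTZ+anti-PDL1 replicate 1. Red blood cell markers were lower in anti-PDL1 than in isotype tumours for 6 of 6 (median log2 fold change -1.73), as were 13 of 14 skeletal muscle markers (-1.03), 4 of 5 tested adipocyte markers (-0.91) and 4 of 4 endothelial markers (-0.21). Markers of T cells (8 of 8, median 0.66), macrophages (6 of 6, 0.35) and fibroblasts (5 of 5, 0.22) were higher. Summed levels overlapped between these groups for muscle, adipocyte, T cell, macrophage, fibroblast and endothelial markers, and edgeR called 0 markers of any list, with 2 red blood cell markers and 1 macrophage marker at an unadjusted p under 0.05. Short genes outside the set moved the same way. Among 608 other genes under 1000 bases (length implied by FPKM), 437 were lower in anti-PDL1 than in isotype tumours (71.9%, median -0.13), against 49.8% of 13789 longer ones (median 0.00088). In the set, the 19 nuclear genes under 1000 bases by this implied length had a median of -0.29 and the 77 longer ones -0.11. The implied length is not the length of the mRNA. For Cox17, counted as longer, it was 7630 bases, more than its locus (chr16:38346991-38352763). The part of other cell types and of gene length in these differences was not tested.

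**Figure D4:**
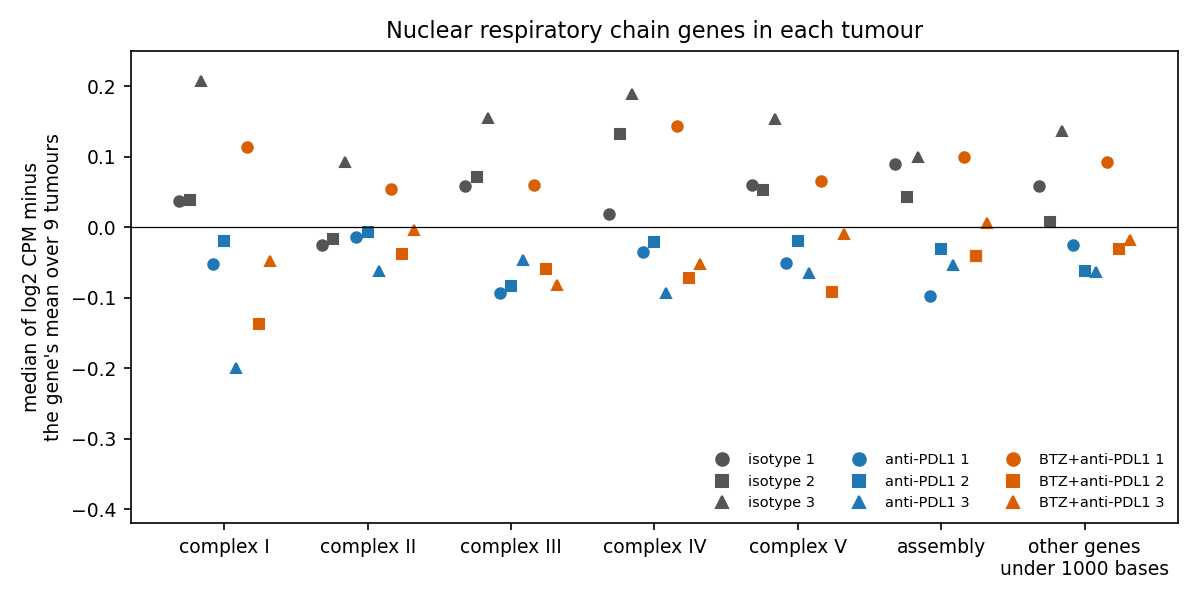
For each tumour (colour for group, shape for replicate), the median over genes of log2 CPM minus the gene's mean over 9 tumours (vertical axis), for nuclear genes of each complex, for assembly factors, and for the 608 other genes under 1000 bases (horizontal axis). Complexes I and III to V show the isotype tumours above 0 and the anti-PDL1 tumours below 0, BTZ+anti-PDL1 replicate 1 above 0, and the short genes outside the set in a like order.

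The mitochondrial genes showed no common shift in this comparison. Of 13, 7 were higher and 6 lower (median 0.024), and the 7 higher ones were the 7 genes of complex I. Among them mt-Nd5 was at 963.6, 858.1 and 1385 CPM in isotype tumours and 1565, 1391 and 1644 in anti-PDL1 tumours (log2 fold change 0.52 ± 0.18, SE, edgeR adjusted p = 0.763). Its groups did not overlap, by a margin of 1385 against 1391 CPM, as the only such gene of the 13 (7.69%, beside 6.08% of all genes). The genes of complexes III, IV and V had fold changes from -0.13 (mt-Co3) to -0.0032 (mt-Co2).

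BTZ+anti-PDL1 against anti-PDL1 asks what BTZ added to the antibody. No gene of the set was called by edgeR (0 of 109, smallest adjusted p = 0.686), beside 2 of 14506 genes (0.0138%), and DESeq2, which called 60 of 12775 genes (0.47%), also called 0 of the set. Of the 96 nuclear genes 65 were higher (67.7%, median log2 fold change 0.058), against 50.8% of all genes (median 0.0029). This direction rested on 1 tumour, since without BTZ+anti-PDL1 replicate 1 the median was -0.0076. At an unadjusted p under 0.05, 5 nuclear genes were higher (5.21%, beside 3.15% over all genes) and 0 lower (beside 2.67%). Values of the BTZ+anti-PDL1 tumours were all above those of the anti-PDL1 tumours for 9 nuclear genes (9.38%, beside 7.33%) and all below for 1, Ndufa4l2 (beside 6.99%).

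By class the medians were 0.045 for complex I, 0.053 for II, 0.027 for III, 0.063 for IV, 0.0028 for V and 0.11 for assembly factors and regulators. The 5 genes with small p were the iron-sulfur subunits Ndufs7 and Ndufs8, the accessory subunit Ndufa12, the assembly factor Ndufaf5 and Atp5j2. Ndufs7 was at 30.1, 28.0 and 26.6 CPM in anti-PDL1 and 37.0, 33.0 and 35.7 in BTZ+anti-PDL1 tumours (0.32 ± 0.098, SE, edgeR adjusted p = 0.722). Ndufaf5, an enzyme that modifies Ndufs7 during assembly, was at 7.40, 9.49 and 8.62 against 11.7, 10.5 and 9.89 CPM (0.33 ± 0.14, adjusted p = 0.851). In both genes the groups did not overlap, and neither difference passed. Atp5f1, subunit b of the stalk that holds the ATP synthase head, was at 154, 148.0 and 149.8 against 155, 172 and 171.5 CPM, again without overlap (0.14 ± 0.073, adjusted p = 0.877).

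Mitochondrial complex I genes lay on the other side. Of the 7, 6 were lower in BTZ+anti-PDL1 tumours (median -0.32), and the seventh, mt-Nd4, was at 0.00037. The gene mt-Nd1 was at 1371, 1212 and 1421 CPM in anti-PDL1 and 797.0, 1096 and 782.1 in BTZ+anti-PDL1 tumours (-0.58 ± 0.17, SE, edgeR adjusted p = 0.686). mt-Nd5 was at 1565, 1391 and 1644 against 897.5, 1225 and 959.6 CPM (-0.58 ± 0.18, adjusted p = 0.771), and mt-Nd3 at 166.4, 147.3 and 158.7 against 95.9, 140.8 and 81.9 (-0.57 ± 0.23, adjusted p = 0.851). The groups of these 3 genes did not overlap (23.1% of the 13 mitochondrial genes, beside 6.99% of all genes). BTZ+anti-PDL1 replicate 2 was nearest to the anti-PDL1 tumours in all 3. Core genes of complexes III and IV stayed between -0.063 (mt-Co2) and 0.11 (mt-Cytb).

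BTZ+anti-PDL1 against isotype compares the combination with the control. It shares its tumours with the 2 comparisons above. By edgeR 0 of 109 genes of the set were called (smallest adjusted p = 0.311), beside 1 of 14506 genes (0.00689%). DESeq2, which called 111 of 14448 genes (0.768%), called 2 genes of the set, Uqcr11 and Ndufv3, both lower. Of the 96 nuclear genes 73 were lower (76%, median -0.093, against 50.3% and -0.0011 over all genes), 10 of them at an unadjusted p under 0.05 (10.4%, beside 4.18% over all genes) and 0 higher (beside 4.42%). The groups did not overlap for 12 lower genes (12.5%, beside 6.03%) and 1 higher gene, Ndufb2 (beside 6.96%). In the same comparison 4 of 4 endothelial markers were lower (median -0.55, 3 at an unadjusted p under 0.05), as were 6 of 6 red blood cell (-1.06), 12 of 14 muscle (-1.50) and 4 of 5 adipocyte markers (-0.68). T cell markers were higher for 8 of 8 (median 0.74) and macrophage markers for 5 of 6 (0.29), fibroblast markers were lower for 3 of 5 (-0.042), and 60.5% of the 608 other genes under 1000 bases were lower. Summed endothelial levels were 143.4, 226 and 189 CPM in isotype against 121, 117 and 143.5 in BTZ+anti-PDL1 tumours, so that only the closest pair overlapped. The part of these in the differences was not tested.

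Uqcr11, a small accessory subunit of complex III, was at 38.3, 37.0 and 46.5 CPM in isotype, 35.3, 29.1 and 29.2 in anti-PDL1 and 29.9, 28.9 and 25.5 in BTZ+anti-PDL1 tumours. Its log2 fold change in BTZ+anti-PDL1 against isotype was -0.53 ± 0.12 (SE, edgeR adjusted p = 0.311; DESeq2 -0.53, adjusted p = 0.0228). Every BTZ+anti-PDL1 value, and every anti-PDL1 value, was below every isotype value. Uqcr11 has 2 near-identical copies without a count, so its level is uncertain. Ndufv3, the accessory subunit of the NADH-oxidising module, was at 49.0, 44.5 and 48.6 CPM in isotype tumours and 39.5, 35.7 and 36.6 in BTZ+anti-PDL1 tumours (-0.34 ± 0.081, edgeR adjusted p = 0.34; DESeq2 -0.35, adjusted p = 0.0497). The anti-PDL1 tumours, at 39.9, 43.6 and 38.7 CPM, lay between them or overlapped the combination.

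Atp5k was at 17.6, 14.5 and 17.3 CPM in BTZ+anti-PDL1 tumours, all below the isotype values given above (-0.54 ± 0.16, SE, edgeR adjusted p = 0.492). Uqcrh, the hinge protein that helps cytochrome c reach complex III, was at 125.2, 97.2 and 101.1 CPM in isotype tumours and 89.7, 88.3 and 80.1 in BTZ+anti-PDL1 tumours (-0.33 ± 0.097, adjusted p = 0.498). Without isotype replicate 1 the Uqcrh value was -0.20, and without isotype replicate 3 the Atp5k value was -0.36. Further members without overlap were Ndufb11 (-0.30 ± 0.090), Ndufa3 (-0.46 ± 0.16), Atp5g3 (-0.38 ± 0.12) and Atp5d (-0.18 ± 0.062). The assembly factor Ndufaf3 was at -0.42 ± 0.20 without overlap, and the complex IV subunit Cox6c at -0.24 ± 0.15 with overlapping groups. Without isotype replicate 3 the values were -0.088 for Cox6c and -0.27 for Ndufa3. The median log2 fold change of the nuclear genes was -0.15 without BTZ+anti-PDL1 replicate 1, -0.049 without BTZ+anti-PDL1 replicate 2 and -0.054 without isotype replicate 3. The 13 mitochondrial genes had a median of -0.057, with 7 lower and 6 higher and overlapping groups for every one.

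The promoters of 79 of the 96 nuclear genes matched RefSeq entries (GRCm38.p6, 250 bases before to 50 after the start). They were searched on both strands for CGCATGC, the core of the site of NRF1, which 13 of 79 held (16.5%), beside 1085 of 27025 promoters of all genes (4.01%). The core CCGGAAG of ETS factors was in 22 (27.8%), beside 2683 (9.93%). NRF1 and the ETS factor GABP are known regulators of nuclear respiratory genes, and a match is a run of letters, not a measured site. Promoters are shown in the strand of the gene with matches in capitals; runs longer than a motif are overlapping matches on both strands. Atp5k and Uqcr11 are shown for their fold changes against isotype with groups apart in both treated groups, and Cox6a1 as a gene steady in all tumours.
Atp5k promoter, chr5:108434350-108434649, minus strand: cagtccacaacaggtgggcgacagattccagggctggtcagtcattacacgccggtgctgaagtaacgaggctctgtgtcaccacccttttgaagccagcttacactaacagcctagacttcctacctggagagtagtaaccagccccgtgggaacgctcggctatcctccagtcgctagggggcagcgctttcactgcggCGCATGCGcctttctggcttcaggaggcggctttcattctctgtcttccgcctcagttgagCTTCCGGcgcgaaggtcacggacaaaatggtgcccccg
Uqcr11 promoter, chr10:80406772-80407071, minus strand: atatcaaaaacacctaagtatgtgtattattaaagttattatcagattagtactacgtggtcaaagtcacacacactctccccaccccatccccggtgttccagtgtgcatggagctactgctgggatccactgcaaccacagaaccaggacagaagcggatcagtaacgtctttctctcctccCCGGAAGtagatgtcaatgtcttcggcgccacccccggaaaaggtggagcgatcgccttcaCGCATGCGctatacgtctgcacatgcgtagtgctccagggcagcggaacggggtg
Cox6a1 promoter, chr5:115348909-115349208, minus strand: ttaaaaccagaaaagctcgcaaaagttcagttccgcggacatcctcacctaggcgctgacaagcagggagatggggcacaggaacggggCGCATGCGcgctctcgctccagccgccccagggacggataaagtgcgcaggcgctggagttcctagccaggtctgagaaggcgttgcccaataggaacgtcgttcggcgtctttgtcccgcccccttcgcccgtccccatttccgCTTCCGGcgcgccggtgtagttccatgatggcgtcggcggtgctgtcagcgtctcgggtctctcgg

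The mitochondrial genes varied unevenly from tumour to tumour, although they come from shared precursor RNAs. The ratio of the highest to the lowest tumour was 1.19 for mt-Co1, 1.23 for mt-Co2 and mt-Co3, 1.22 for mt-Atp8, 1.28 for mt-Cytb, 1.31 for mt-Nd4 and 1.27 for mt-Nd4l. It was 1.82 for mt-Nd1, 1.69 for mt-Nd2, 2.27 for mt-Nd3, 1.92 for mt-Nd5 and 2.26 for mt-Nd6. A count relative to mt-Co1 needs no scaling between tumours. Per 100 counts of mt-Co1, mt-Nd5 had 7.32, 6.23 and 10.2 in isotype, 11.8, 12.1 and 12.3 in anti-PDL1 and 6.56, 9.40 and 7.92 in BTZ+anti-PDL1 tumours. The 3 anti-PDL1 tumours were above all others and close to each other. For mt-Nd1 the same measure was 7.55, 7.17 and 10.2, then 10.3, 10.5 and 10.6, and then 5.83, 8.41 and 6.46. For mt-Nd4 it was 15.9, 14.2 and 18.9, then 17.7, 18.2 and 17.0, and then 17.8, 16.9 and 17.2, with no gap between groups. With 3 tumours against 3, the smallest p an exact two-sided permutation test can give is 0.1, so this was left as a description.

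**Figure D5:**
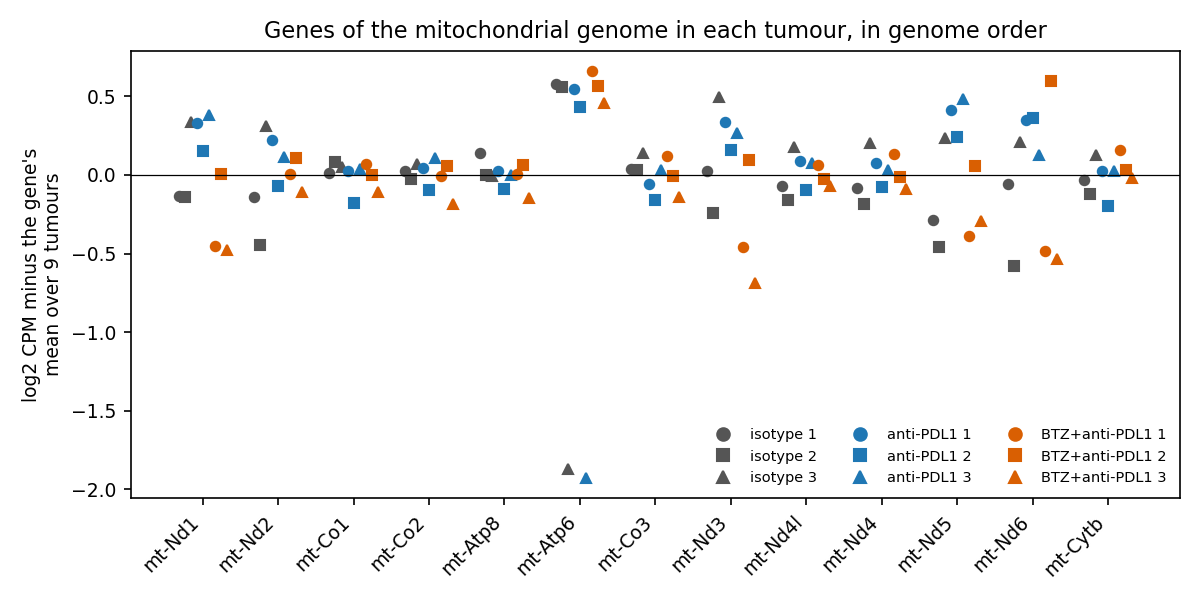
Log2 CPM minus the gene's mean over 9 tumours (vertical axis) for the 13 mitochondrial genes in genome order (horizontal axis), with colour for group and shape for replicate. Isotype replicate 3 and anti-PDL1 replicate 3 lie far below the other tumours at mt-Atp6 only, while mt-Nd1, mt-Nd2, mt-Nd3, mt-Nd5 and mt-Nd6 spread more than the genes of complexes III and IV.

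One gene fell on 2 separate levels. mt-Atp6, the proton-channel subunit a of the ATP synthase, was at 4316, 4260 and 789.2 CPM in isotype, 4222, 3905 and 761.3 in anti-PDL1 and 4576, 4292 and 3971 in BTZ+anti-PDL1 tumours. The pair of low tumours belonged to different groups, and their neighbouring genes mt-Atp8 and mt-Co3 stayed within a 1.23-fold range. Its identical nuclear copy Gm10925 was at 439 and 399 CPM in those tumours, within the range of 369 to 512 in the rest. How reads that fit both places were counted is not given in the sources used here. Ndufaf4 also had 2 levels, with 20.2, 24.7 and 10.3 CPM among isotype, 19.0, 7.87 and 20.3 among anti-PDL1 and 9.06, 21.6 and 21.1 among BTZ+anti-PDL1 tumours. Such a pattern, a gap of at least 0.7 on the log2 scale that is at least 1.5 times the range within either level, was seen in 2 of 102 genes of the set and 85 of 11005 genes with a mean of at least 5 CPM. What separates the levels was not tested.

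Genes around the pathway, from lists that are not part of the set, held 1 called gene. In anti-PDL1 against isotype, edgeR called 0 of 13 tested genes for electron carriers and ubiquinone synthesis and 0 of 25 for mitochondrial transcription and RNA. It also called 0 of 11 nuclear regulators and 0 of 16 enzymes of the tricarboxylic acid cycle. At an unadjusted p under 0.05 these 4 lists held 0, 1, 0 and 0 genes, beside 6.35% of all genes. DESeq2 counts were not taken for these lists. In BTZ+anti-PDL1 against anti-PDL1 the same 4 lists held 0 called genes and 0, 1, 1 and 0 at an unadjusted p under 0.05 (beside 5.82% of all genes). In BTZ+anti-PDL1 against isotype they held 0 called genes and 1, 1, 1 and 1 at an unadjusted p under 0.05 (beside 8.6%). Their medians in anti-PDL1 against isotype were -0.053, -0.023, -0.061 and -0.053. Of the mitochondrial transcription and RNA genes, 5 of 25 lay below isotype without overlap (20%, beside 6.61% of all genes), with Slirp, an RNA-binding partner of Lrpprc, at -0.34 ± 0.14, and 21 of 25 were higher in BTZ+anti-PDL1 than in anti-PDL1 tumours (84%, beside 50.8%). Of the nuclear regulators, 2 of 11 were lower without overlap in each comparison of BTZ+anti-PDL1 (18.2%, beside 6.99% against anti-PDL1 and 6.03% against isotype). These were Ppargc1b, a coactivator of mitochondrial genes (-0.73 ± 0.26 against anti-PDL1 and -0.67 ± 0.26 against isotype), and Nrf1, which encodes NRF1 (-0.17 ± 0.10 and -0.21 ± 0.10). The widest fold changes of that list belonged to Prkaa2, a catalytic subunit of the energy-sensing kinase AMPK, at 2, 0 and 93 counts in isotype, 31, 7 and 10 in anti-PDL1 and 15, 0 and 1 in BTZ+anti-PDL1 tumours, with overlapping groups and most counts in isotype replicate 3, the tumour richest in muscle RNA. Among 32 assembly factors with other names (median -0.052) 1 was called (beside 0.0138% of all genes), Tmem70, which helps to build the c ring of the ATP synthase. It was at 35.2, 39.2 and 37.8 CPM in isotype, 18.7, 19.4 and 19.7 in anti-PDL1 and 41.6, 34.4 and 32.9 in BTZ+anti-PDL1 tumours. Tmem70 fell in anti-PDL1 against isotype (log2 fold change -0.96 ± 0.10, SE, edgeR adjusted p = 0.0301) and rose in BTZ+anti-PDL1 against anti-PDL1 (0.92 ± 0.10, adjusted p = 0.044). It is one of the 85 genes on 2 levels. Without each tumour in turn the calls held in 2 and 3 of 9 fits, with adjusted p from 0.0117 to 0.275 and from 0.0323 to 0.205 and log2 fold changes from -0.99 to -0.92 and from 0.81 to 0.98.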

How the data were processed

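Per the file headers, the authors deposited a count (a whole number, not normalised) and an FPKM value of each gene in each tumour. Over 10325 genes the deposited FPKM was proportional to count over column total (largest relative deviation 6.2e-06). The submitters' processing notes name HISAT2 2.0.4, StringTie 1.3.3b and mm10; counting tool, annotation and strand setting are not given in the sources used here. The control, titled blank, is isotype by its treatment label. Columns of the combination carry the treatment and a replicate number and were mapped by these.

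The test was the quasi-likelihood F test of edgeR 4.0.16 (R 4.3.3, robust, TMM scaling, 6 residual degrees of freedom from 9 tumours in 3 groups). The function filterByExpr, at a minimum count of 10, kept 14506 genes. Calls needed a Benjamini-Hochberg adjusted p under 0.05 over all tested genes. CPM is TMM-scaled, and each SE was derived from the fold change and its F. The hosts are separate mice per the labels' protocols. Replicates differed beyond counting noise (chi-square per degree of freedom 19.4 to 42.5). On data simulated for anti-PDL1 against isotype with 14506 genes, 24% of 100 genes changed 1.5-fold and 95% of 100 changed 3-fold were recovered. In the same data 7 unchanged genes were called. All genes were simulated at 1 dispersion, the median of the fit, so differences in spread between genes were left out. Changes smaller than 1.5-fold were not simulated.

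Copies were searched with blastn 2.17.0 in GENCODE M21 transcripts. Alternatives were RLE scaling, scaling without mitochondrial genes, no filter, DESeq2 1.42.0, limma 3.58.1 on log2(FPKM + 1) where FPKM reached 1 in 3 tumours, fitting only the 6 tumours compared, a replicate block, and leaving out single tumours or the 3 richest in muscle RNA.

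Named genes follow a rule: called genes, all mitochondrial genes, the 2 genes of each class with the smallest p per comparison, isoform families, the 8 most variable genes, and the highest and lowest subunit of each complex. Uqcr10, Uqcrc1, Uqcrc2, Uqcrfs1, Ndufa3, Ndufa12, Ndufb2, Atp5a1, Atp5d, Atp5o and, for their copies, Ndufs5, Cox5b, Atp5h and Atp5l and the list genes Slirp, Ppargc1b, Nrf1 and Prkaa2 lie outside it and were chosen after their values were seen. The genes and lists were chosen with earlier results of these data known.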

Additional observations from a re-analysis of the deposited data

How the results depend on the processing

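By edgeR, 0 genes of the set were called under every alternative, leaving out each tumour included, and limma called 0; DESeq2 called 2, in BTZ+anti-PDL1 against isotype. Over all genes, the counts called (2 for the antibody against control, 2 for the combination against the antibody and 1 for the combination against control) were 15, 60 and 111 by DESeq2, 1, 1 and 0 with the replicate number as a block, and 0, 0 and 0 without the 3 tumours richest in muscle RNA. For the comparisons of the combination, in that order, they were 4 and 6 with no filter, 12 and 0 with only the 6 tumours compared, and 4 and 3 without the tumours low in mt-Atp6, an alternative chosen after seeing the data. For the combination against control limma called 3. Leaving out each tumour gave 1 to 4, 1 to 7 and 0 to 20 genes. The replicate numbers did not pair the tumours, as correlations of same-numbered tumours ran from -0.434 to 0.393 and 1 of 9 correlated best with its own number. Fold changes under alternatives were kept for mt-Nd1, mt-Nd3, mt-Nd5, mt-Nd6 and the 2 nuclear genes of each class with the smallest p per comparison. Of these 864 values 855 kept their direction and 9 changed it, and 2 were called, Uqcr11 and Ndufv3 by DESeq2 as above. Since the nuclear genes were picked by their p in these same data, the kept directions are not a check of robustness. Leaving out each tumour gave -0.016 to 0.36 for mt-Nd3 in anti-PDL1 against isotype and, in BTZ+anti-PDL1 against isotype, -0.054 to 0.19 for Sdhb, -0.40 to 0.27 for mt-Nd6 and -0.20 to 0.17 for mt-Nd5. For mt-Nd5 it was also 0.26 without the tumours richest in muscle RNA and 0.17 without those low in mt-Atp6. Medians of the nuclear genes ran from -0.18 to -0.11, -0.0076 to 0.085 and -0.15 to -0.049 without each tumour. The cause of these changes was not tested. With 3 tumours a group, depth limits only the genes of few counts, such as Cox8b.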
